A study of Rattus norvegicus with 45 samples.

Results

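The comparison is treadmill exercise without any drug in the soleus of the rat. It sets 4 arrays of exercised, vehicle-treated animals against 4 arrays of vehicle-treated animals whose sample title does not mention exercise, and these 8 arrays are all that the titles place in the 2 groups, of 45 arrays in the series. All animals were female Sprague Dawley rats given methylcellulose solution, the carrier of the drug, for 14 days, and 1 group also ran on a treadmill for 20 min per day at 20 m per min on 5 days per week. The labels give neither the animals' ages nor the time between the last run and the removal of the muscle. The other 37 arrays hold soleus of animals on cerivastatin, a cholesterol-lowering statin, at 1 mg/kg per day, and gastrocnemius on vehicle or cerivastatin. The gastrocnemius doses were 0.1, 0.5 and 1.0 mg/kg per day, and all these groups came with and without exercise. Total RNA was measured on single-channel Affymetrix arrays, which report a signal per probe set, from 3 µg of RNA per soleus and 4 µg per gastrocnemius sample. The series describes its replicates as biological, and the values therefore carry the spread between animals. The counts over all genes and the list medians are also given without unexercised replicate 3, an array that stands apart from the other 3 of its group.

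The soleus is a postural calf muscle made mostly of slow, oxidative fibres, which carry the slow myosin heavy chain Myh7 and the slow troponins and burn fatty acids in many mitochondria. The gastrocnemius beside it is mostly fast and glycolytic. Running is known to induce, within minutes to hours, stress and immediate early genes such as Fos, Egr1, Atf3 and Nr4a3 and metabolic genes such as Ppargc1a, Pdk4 and Hk2, and repeated over weeks it is known to raise mitochondrial content, capillary supply and matrix turnover. Transcripts of the first kind are known to decay again soon after the run.

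The label of the tissue matched its fibre markers. Myh7 signals lay between 64279 and 95343 on the 8 soleus arrays. The slow troponin Tnni1 lay between 45203 and 63983, against 10215 to 41129 on the 4 arrays of unexercised vehicle gastrocnemius. Fast fibre genes split the soleus arrays in a way that the labels do not. The fast myosin Myh4 had signals of 235, 32544, 15261 and 62.2 in unexercised replicates 1 to 4, and of 98.4, 101, 37989 and 18217 in exercised replicates 1 to 4. It was thus high on 2 arrays of each group and low on the other 2 of each, while in unexercised vehicle gastrocnemius it lay between 52135 and 74564. Actn3, which anchors actin in fast fibres, followed the same arrays, with 231, 47690, 18698 and 363 in the unexercised and 71.6, 282, 37491 and 16406 in the exercised samples.

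Fat and nerve markers also varied between arrays within a group. Adipoq, the adipocyte hormone adiponectin, had signals of 343, 1639, 15350 and 731 in unexercised replicates 1 to 4 and of 1468, 335, 6477 and 7013 in exercised replicates 1 to 4. Mbp, a myelin protein of Schwann cells, had signals of 410, 423, 13187 and 195 and of 604, 729, 2021 and 3050 in the same order. Unexercised replicate 3 was highest in both genes and exercised replicates 3 and 4 came next. The mean log2 signal of 17 adipocyte markers was 12.65 on unexercised replicate 3, 11.92 and 11.95 on exercised replicates 3 and 4, and 10.18 to 11.17 on the other 5 arrays. The summed signal of these markers ran from 134863 to 232346 in unexercised and from 155739 to 200258 in exercised soleus. Much of this sum was Car3, with a mean log2 of 16.07 over the 8 arrays, and it did not follow the list mean. Exercised replicate 2 had the lowest list mean, 10.18, but summed to 158326. Unexercised replicate 2, with a list mean of 11.17, summed to 134863. No adipocyte marker was listed at 0 on any of the 8 arrays, and the lowest signal was 11.3, of Scd on exercised replicate 2. The 5' to 3' signal ratio of the beta-actin control probe sets, which falls as RNA or its copies get shorter, was lowest on those 3 arrays, at 0.255, 0.301 and 0.328, against 0.383 to 0.707 on the other 5. The same ratio for the Gapdh control was 0.624, 0.675 and 0.664 on those 3 arrays. Unexercised replicate 4 lay among them at 0.673, and the remaining arrays were higher, at 0.705 to 0.825. In whole muscle, fewer cells of a type and less RNA per cell cannot be told apart, and this holds for every result below.

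**Figure D1:**
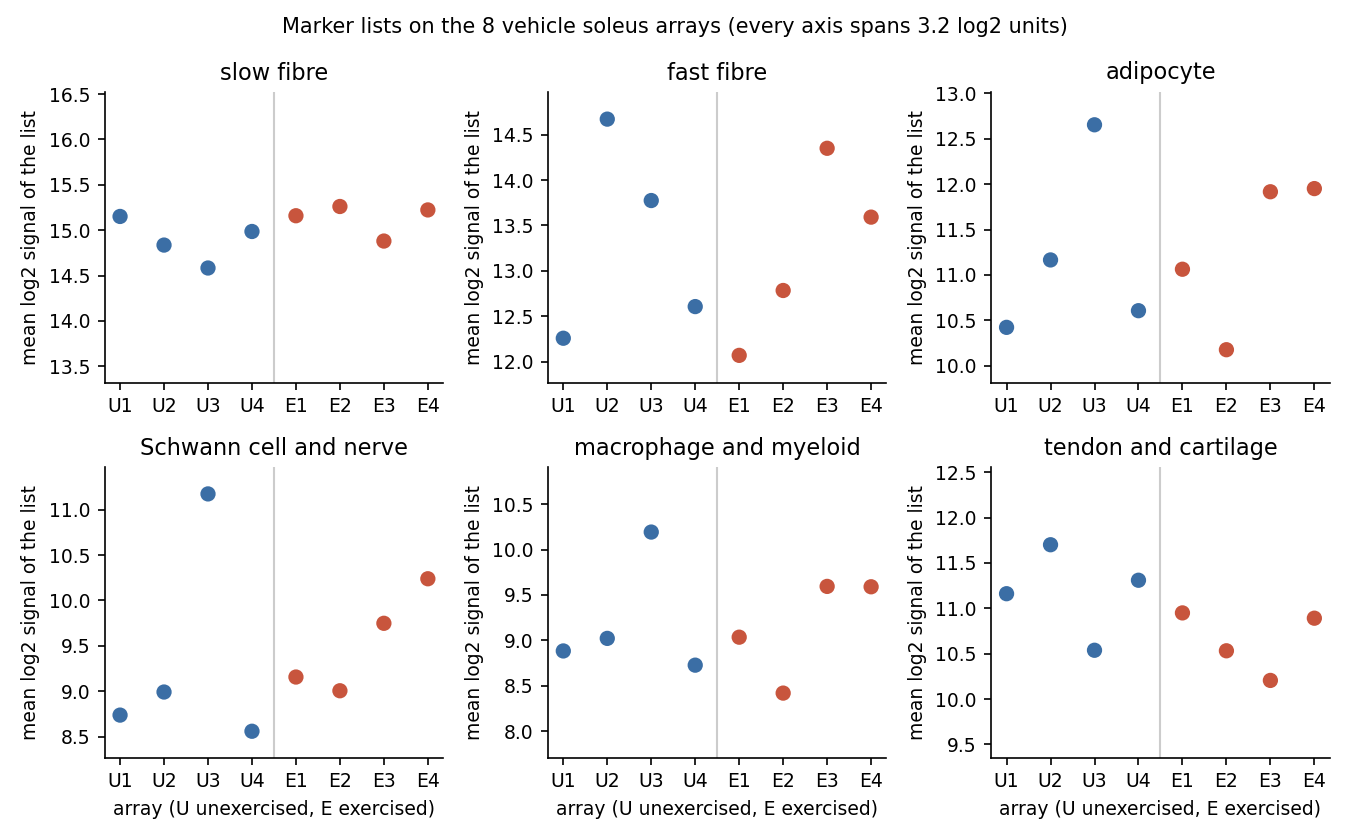
Mean log2 signal of 6 marker lists (vertical axes, each spanning 3.2 log2 units) on the 8 vehicle soleus arrays (horizontal axes), with unexercised arrays (U1 to U4) in blue and exercised arrays (E1 to E4) in red. The slow fibre list stays between 14.58 and 15.26, while the fast fibre list ranges from 12.07 to 14.67 and U3 is highest in the adipocyte, Schwann cell and macrophage lists.

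No gene passed the test for an exercise difference in vehicle soleus. Of 21729 probe sets tested with limma, 0 were higher (0%) and 0 were lower (0%) after Benjamini-Hochberg adjustment at 0.05. Without unexercised replicate 3 the count was again 0 of 21729 (0%). Before adjustment, 645 probe sets (2.97%) had a p under 0.05, 372 of them higher (1.71%) and 273 lower (1.26%), which is below the 5% that the threshold itself allows. Leaving out unexercised replicate 3 gave 852 (3.92%), with 549 higher (2.53%) and 303 lower (1.39%). The 4 exercised arrays all lay above the 4 unexercised arrays for 235 probe sets (1.08%) and all below them for 185 (0.851%), and without unexercised replicate 3 these numbers were 737 (3.39%) and 546 (2.51%).

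The size of difference that these arrays could resolve is given by the intervals. The standard errors and intervals of the exercise difference take their spread from all soleus arrays fitted, cerivastatin groups included. Over the 11684 genes that were represented by 1 probe set each, the median log2 difference was 0.00 and the median standard error 0.24, on the log2(signal + 12.4) scale used throughout. The 95% interval of the median gene reached 0.51 to either side of its estimate, so that a typical gene would have had to differ by more than about this much before adjustment. A difference of more than 1 log2 unit was estimated for 164 genes (1.4%), and for 276 (2.36%) without unexercised replicate 3. The smallest adjusted p was 0.346 (limma), for a probe set that carries no gene symbol here. Its signals were 30.5, 61.9, 77.5 and 64.8 in the unexercised and 185, 180, 173 and 220 in the exercised samples, a log2 difference of 1.55 ± 0.25 (SE of the fit on all soleus arrays, with 4 and 4 arrays compared). All 4 exercised arrays lay above all 4 unexercised arrays at this probe set, and without unexercised replicate 3 its adjusted p was 0.318 (limma).

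**Figure D2:**
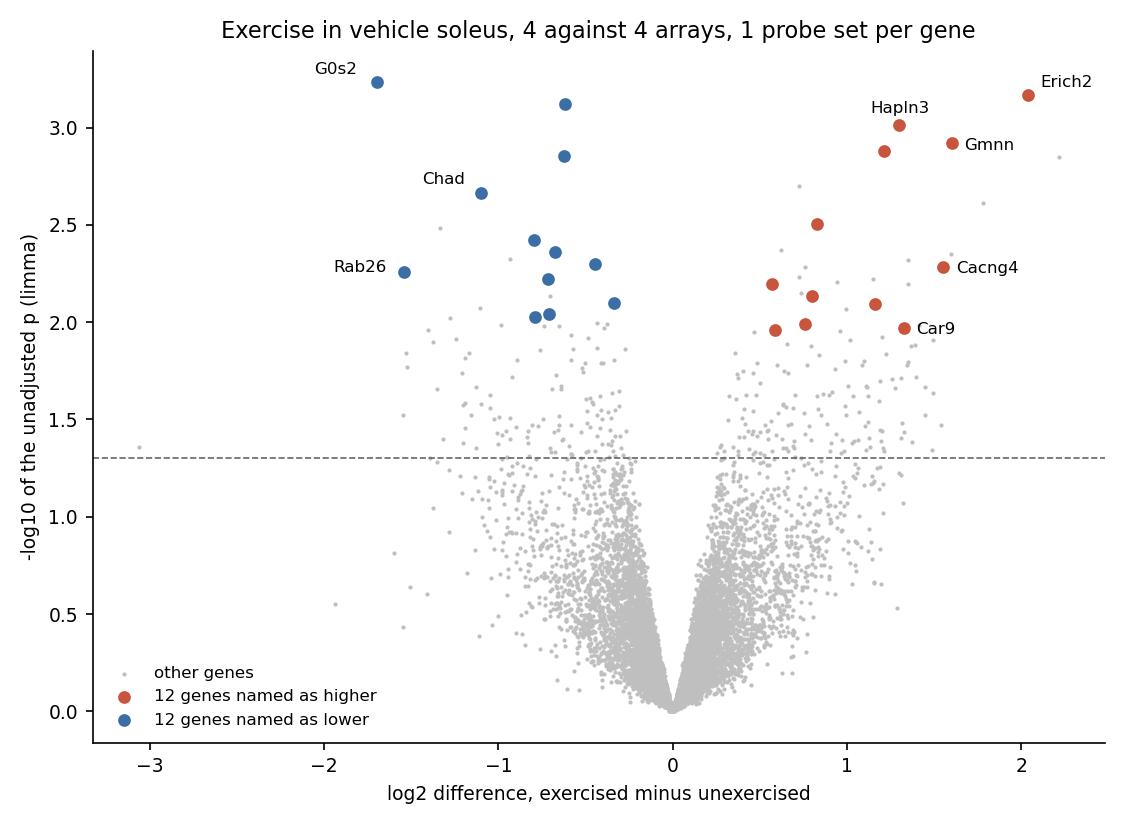
Log2 difference, exercised minus unexercised (horizontal axis), against the -log10 of the unadjusted limma p-value (vertical axis) for 11684 genes in vehicle soleus, with a dashed line at the unadjusted threshold of 0.05. Red and blue points are the 12 genes named as higher and the 12 named as lower, none of which passed the adjusted threshold, and the cloud is about as wide to the left as to the right.

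The 12 genes with the smallest p among those higher on every exercised array, with an unadjusted p under 0.05 both with and without unexercised replicate 3, are named here although none passed the adjusted threshold. They were chosen from 34 such genes, their adjusted p was 0.9998 in each case (limma), and their order and separation are the result of the choice. Their signals ran from 6.9 to 540 over the 12 genes and 8 arrays, and in several some unexercised signals lay near the offset. Erich2 had signals of 13.1, 10.6, 41.7 and 6.9 in unexercised and 97.3, 129, 105 and 83.3 in exercised soleus, a log2 difference of 2.04 ± 0.48. Its unexercised values surround the offset of 12.4 that was added before taking logarithms, and so its fold change is poorly determined. Gmnn, geminin, which restrains the licensing of DNA replication, had 75.7, 26.4, 67.2 and 13.7 against 155, 177, 89.0 and 174, with a 95% interval of 0.74 to 2.46 for its log2 difference. The highest unexercised and the lowest exercised array of Gmnn lay close together. Cacng4, an auxiliary subunit of calcium channels and glutamate receptors, lay between 9.7 and 33.6 in unexercised and between 49.4 and 103 in exercised soleus, a difference of 1.55 ± 0.48.

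Single genes of contraction, matrix and hypoxia were also in this set, and no theme among them was tested. Tnni3, the cardiac form of the inhibitory troponin, had signals of 77.0, 85.2, 173 and 203 in unexercised and 375, 256, 342 and 258 in exercised soleus, a log2 difference of 1.21 ± 0.31. Hapln3, which links hyaluronan to proteoglycans in the matrix, had 49.4, 121, 63.1 and 48.6 against 185, 186, 201 and 154, a difference of 1.30 ± 0.32. Car9, a carbonic anhydrase known to be induced by low oxygen, had 79.0, 37.9, 18.4 and 47.1 against 136, 115, 119 and 121, a difference of 1.33 ± 0.46. In Car9 the exercised arrays lay within a narrow band and the unexercised arrays were spread widely, with unexercised replicate 3 lowest, and the difference was 1.06 ± 0.47 without that array. The remaining 6 were Cxcr5, a chemokine receptor of B cells, Glycam1, a mucin that binds L-selectin, Nckap1l, an actin regulator of blood cells, Ten1, a telomere-capping protein, Mamdc4 and Fam163b. Their differences ranged from 0.57 for Ten1 to 1.16 for Fam163b.

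Among the 12 genes named as lower, chosen in the same way from 40, G0s2 stood at the head. G0s2 encodes an inhibitor of the lipase that begins the breakdown of stored triglyceride. Its signals were 5833, 10597, 4880 and 3150 in unexercised and 1582, 1196, 1443 and 3079 in exercised soleus, a log2 difference of -1.70 ± 0.39 (95% interval -2.54 to -0.86, adjusted p 0.9998, limma). The lowest unexercised array and the highest exercised array, both replicate 4, nearly touched. In the adipocyte markers named above, unexercised replicate 3 and exercised replicates 3 and 4 were the high arrays. Without those 3 arrays, an alternative added after seeing the data, the G0s2 difference was -2.07. The part of fat content in the G0s2 difference was not tested. Chad, chondroadherin, a leucine-rich protein of cartilage and tendon matrix, had signals of 4323, 7942, 2965 and 3915 against 2599, 1642, 1595 and 2726, a difference of -1.10 ± 0.30. Unexercised replicate 3 was here the lowest of its group, and without it the difference was -1.30 ± 0.30.

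The rest of the lower set held single genes of iron transport and protein turnover and some of vesicle traffic, again with no theme tested. Slc25a37, mitoferrin, which brings iron into mitochondria, had signals of 316, 242, 278 and 273 in unexercised and 218, 137, 142 and 188 in exercised soleus, a difference of -0.68 ± 0.20. Svip, a small partner of the ATPase VCP in protein degradation, had 625, 763, 761 and 740 against 440, 477, 567 and 384, a difference of -0.62 ± 0.16. In both genes the lowest unexercised array lay only a little above the highest exercised array. Mettl7a, a methyltransferase-like protein, had 3320, 2333, 2690 and 4032 against 1795, 2182, 1945 and 1537. The difference of Mettl7a was -0.71 ± 0.24. Ipmk, an inositol phosphate kinase, had the smallest difference of the set, -0.34 ± 0.11, with signals of 1359 to 1590 in unexercised and 1116 to 1223 in exercised soleus. Rufy1, an endosomal trafficking protein, Akap11, an anchor of protein kinase A, Mlh3, a DNA mismatch repair protein, Znf780b, a zinc finger protein, Hycc2 and the vesicle GTPase Rab26 complete it, between -1.54 for Rab26 and -0.45 for Akap11. For Hycc2 only 1 of its 3 probe sets pointed downwards, so its value of -0.62 belongs to that probe set.

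**Figure D3:**
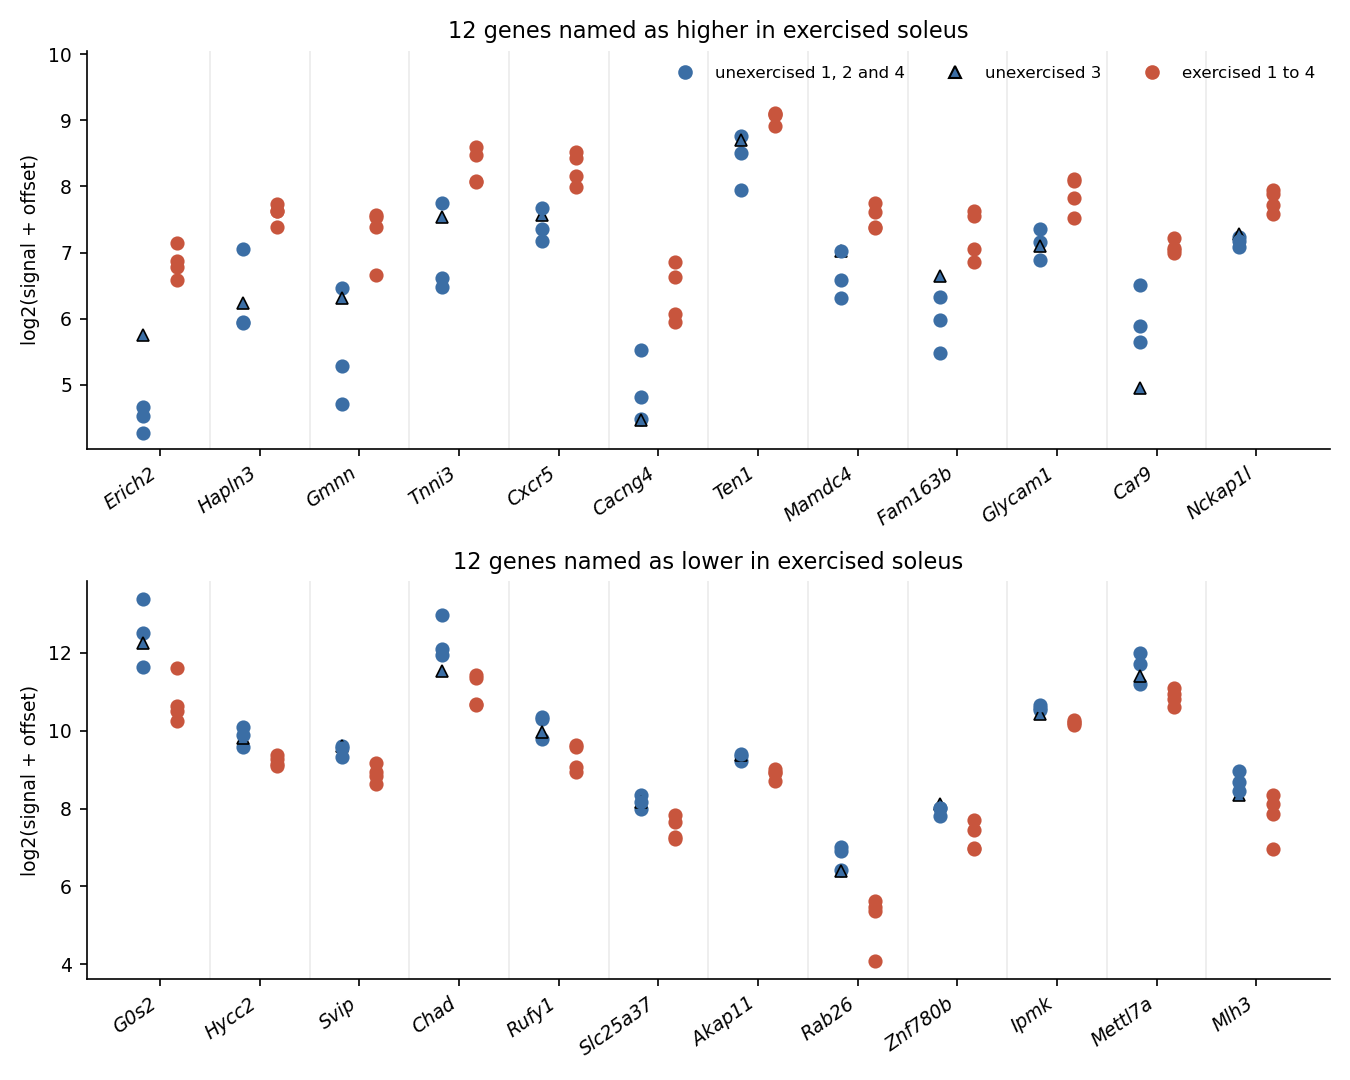
Log2(signal + offset) on each of the 8 arrays (vertical axes) for the 12 genes named as higher (top) and the 12 named as lower (bottom), with unexercised arrays in blue, unexercised replicate 3 as a triangle and exercised arrays in red. No gene's groups overlap, because that was a condition of the choice, and in G0s2, Mettl7a and Mlh3 the nearest arrays of the 2 groups almost meet.

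The same 24 genes can be set beside exercise comparisons that share no array with this one. The labels do not say which soleus and gastrocnemius came from the same animal, so the gastrocnemius comparison may share animals with this one. In soleus of animals on cerivastatin, 6 of the 12 genes named as higher were higher with exercise, where 49.9% of all genes were, and their median difference was -0.09. Of the 12 named as lower, 7 were lower there, where 50.1% of all genes were, with a median of -0.01. Only Erich2 passed an unadjusted p under 0.05 in the same direction, at 1.27 ± 0.52. Neither share was far from that of all genes. In vehicle gastrocnemius, 5 of the 12 higher genes were higher, where 48.9% of all genes were, and 10 of the 12 lower genes were lower, where 51.1% were, and no gene passed an unadjusted p under 0.05 in the same direction. G0s2 differed by 0.07 ± 0.43 in cerivastatin soleus and by -0.81 ± 0.77 in vehicle gastrocnemius, and Chad by 0.57 ± 0.32 and by -1.94 ± 1.64. The gastrocnemius standard errors took their spread from all gastrocnemius arrays, cerivastatin groups included. Both comparisons had no probe set past the adjusted threshold themselves (0 of 21729, 0%, in each, limma). At an unadjusted p under 0.05 there were 661 in cerivastatin soleus (3.04%, with 1.4% higher and 1.64% lower) and 724 in vehicle gastrocnemius (3.33%, with 2.08% higher and 1.26% lower).

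Genes known to respond to running were examined as a panel of 47, of which 44 were tested. None passed the adjusted threshold. Before adjustment 1 of the 44 had a p under 0.05, where 1.37% of all genes were higher and 1.13% lower at that threshold, and without unexercised replicate 3 none had. That gene was Csrp3, a muscle LIM protein of the Z-disc that responds to stretch, with signals of 26629, 20147, 16163 and 23526 in unexercised and 30669, 47135, 23043 and 35818 in exercised soleus. Its difference was 0.64 ± 0.24, and 0.51 ± 0.25 without unexercised replicate 3. The exercised arrays overlapped the unexercised ones through exercised replicate 3. The 95% interval lay within 1 log2 unit of 0 at both ends for 24 of the 44 genes, so that for these a change of more than that size lay outside the interval, and the median interval reached 0.69 to either side.

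Among the metabolic regulators of the panel, Ppargc1a, the coactivator that drives mitochondrial biogenesis, had signals of 618, 655, 664 and 1196 in unexercised and 1093, 1594, 528 and 330 in exercised soleus. The exercised arrays lay both above and below the unexercised ones, and the difference was -0.02 ± 0.52, with 1 of its 3 probe sets in that direction. Hk2, the hexokinase of working muscle, differed by 0.00 ± 0.51, from signals of up to 929 in unexercised and 307 to 763 in exercised soleus, and by -0.45 ± 0.47 without unexercised replicate 3, its lowest array. Pdk4, which shuts carbohydrate out of the mitochondria, had 19244, 6843, 5162 and 15028 against 14830, 17205, 18195 and 11451. The difference of Pdk4 was 0.59 ± 0.48, and it was 0.27 ± 0.48 without unexercised replicate 3, the lowest array of its group. Without the 4 arrays high in Myh4, an alternative added after seeing the data, it was -0.09. Cs, citrate synthase of the TCA cycle and a usual index of mitochondrial content, differed by 0.31 ± 0.18, with 4 of its 4 probe sets in the same direction. For Vegfa, the main capillary growth factor, the difference was 0.19 ± 0.20, with an interval of -0.24 to 0.62.

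Immediate early genes were scattered, and single exercised arrays carried the larger differences. Fos, a subunit of the AP-1 transcription factor, had signals of 991, 555, 1213 and 1298 in unexercised and 1462, 5402, 1223 and 939 in exercised soleus, a difference of 0.84 ± 0.53. Atf3, a stress-induced transcription factor, had 893, 581, 551 and 1693 against 869, 6327, 2477 and 705, a difference of 1.07 ± 0.61. In both, exercised replicate 2 was far above every other array. Of the other exercised arrays, replicate 1 in Fos and replicate 3 in Atf3 also lay above the unexercised range, and the rest lay within it. Nr4a3, an orphan nuclear receptor induced by contraction, had 191, 265, 822 and 1682 against 325, 1735, 724 and 203, and differed by 0.06 ± 0.81, with 1 of its 3 probe sets in that direction. Egr1, a zinc finger transcription factor, differed by 0.11 ± 0.45. Of the 36 immediate early genes tested, 23 had a positive difference and the median was 0.13, beside 0.00 over all genes, and without unexercised replicate 3 these were 25 and 0.25, beside 0.02 over all genes.

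Fibre type genes of the panel showed small differences in the slow set and very wide ones in the fast set. Myh7 differed by 0.21 ± 0.16 and Tnni1 by 0.19 ± 0.16, and the upper ends of their 95% intervals were 0.55 and 0.53. With quantile normalization in place of the authors' scaling these were 0.03 and 0.02. Myh4 differed by -0.02 with a standard error of 2.30, since each group held 2 high and 2 low arrays, and its 95% interval ran from -4.90 to 4.86. The ubiquitin ligases of muscle wasting Fbxo32 and Trim63 differed by 0.23 ± 0.37 and 0.43 ± 0.37, and Mstn, the growth inhibitor myostatin, by -0.71 ± 0.69 from signals of 9.8 to 125.

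**Figure D4:**
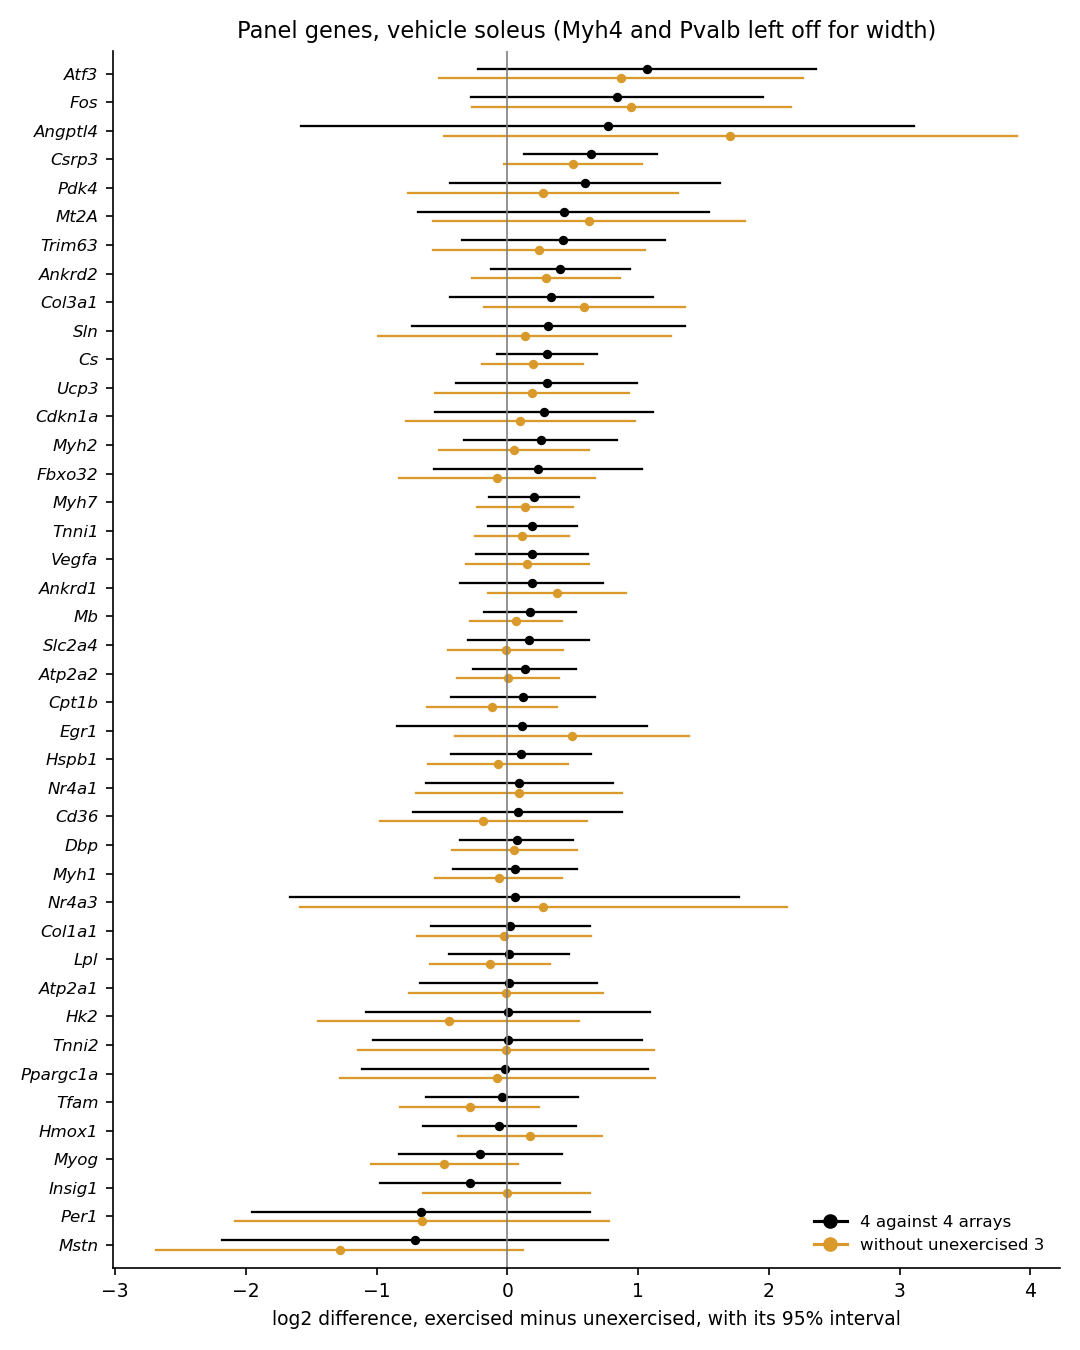
Log2 difference, exercised minus unexercised, with its 95% interval (horizontal axis) for 42 of the 44 tested panel genes (vertical axis), from 4 against 4 arrays in black and without unexercised replicate 3 in orange. The intervals take their spread from all soleus arrays fitted. From 4 against 4 arrays every interval shown crosses 0 except that of Csrp3, at 0.64 with an interval of 0.13 to 1.15, and without unexercised replicate 3 its interval crosses 0 too.

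Gene lists for fibre types, metabolism and cell types were described by their counts and medians. In none of 35 lists, which held 739 tested genes of 889 symbols, did a member pass the adjusted threshold in either direction. The slow fibre list had 17 of 17 tested members with a positive difference and a median of 0.21, beside 0.00 and 50.8% positive over all genes. Oxidative phosphorylation, the respiratory chain and its ATP synthase, had 62 of 63 members positive with a median of 0.20. For the TCA cycle it was 15 of 15 with 0.18, and for fatty acid uptake and oxidation 35 of 38 with 0.17. The members of such lists move together from array to array, so their agreement in sign is not the agreement of independent genes.

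These positive medians rested in large part on unexercised replicate 3, which was low in the same genes. Without it the slow fibre median was 0.11 with 16 of 17 members positive, and the oxidative phosphorylation median was 0.04 with 45 of 63. The TCA cycle median became 0.02 with 10 of 15 positive and the fatty acid oxidation median -0.01 with 17 of 38, beside 52.9% positive over all genes. The mean log2 signal of the oxidative phosphorylation list was 14.19, 13.90, 13.47 and 14.13 in unexercised and 14.14, 14.47, 14.04 and 13.88 in exercised soleus. Unexercised replicate 3 was the lowest of the 8 arrays and the others overlapped between the groups. Genes of stretch and the Z-disc, which share Csrp3 and Ankrd2 with the slow fibre list, showed the same, with 18 of 18 positive and a median of 0.20, and 12 of 18 and 0.09 without that array. Glycolysis and glycogen genes had 20 of 32 positive and a median of 0.08, which was -0.01 with quantile normalization, and without that array 16 of 32 were positive with a median of 0.00. In that list Pgk1, phosphoglycerate kinase, had signals of 13972, 22962, 15270 and 16735 against 20886, 34492, 25159 and 25279, a difference of 0.62 ± 0.19. Only unexercised replicate 2 lay among the exercised arrays of Pgk1, and 1 of its 2 tested probe sets pointed upwards.

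Markers of tendon and cartilage were lower in exercised soleus, without passing the test. All 9 tested members had a negative difference, with a median of -0.44, where 50.8% of all genes had a positive one. Of the 9 members, 2 had an unadjusted p under 0.05, where 1.13% of all genes were lower at that threshold. One of these 2, Chad, was already named for its small p and its separation. As in the lists above, members may move together from array to array, so their shared sign is not that of independent genes. Without unexercised replicate 3, which was the lowest unexercised array in this list, the median was -0.64 with 9 of 9 negative and 4 at an unadjusted p under 0.05, where 1.37% of all genes were. Besides Chad, Comp, a cartilage oligomeric matrix protein that is abundant in tendon, had signals of 2847, 3556, 1890 and 2300 in unexercised and 1872, 1372, 1229 and 2099 in exercised soleus. Its difference was -0.68 ± 0.30, and only unexercised replicate 3 lay within the exercised range. Cilp2, another matrix protein of cartilage, had 1729, 3750, 1210 and 3061 against 1625, 1076, 950 and 1889, a difference of -0.73 ± 0.40. Acan, the large proteoglycan aggrecan, had 235, 335, 79.5 and 225 against 198, 41.0, 34.8 and 195, a difference of -1.02 ± 0.52. Scx, the transcription factor of tendon cells, differed by -0.30 ± 0.37, and Tnmd, tenomodulin, a membrane protein of tendon cells, by -0.14 ± 0.30. The remaining members were Col2a1, the collagen of cartilage, at -0.44 ± 0.33, with 1 of its 2 probe sets in that direction, Fmod, fibromodulin, at -0.27 ± 0.29, and Thbs4, a thrombospondin of tendon, at -0.11 ± 0.32.

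The mean log2 signal of the tendon and cartilage list was 11.16, 11.70, 10.54 and 11.31 in unexercised and 10.95, 10.53, 10.21 and 10.89 in exercised soleus. The 4 exercised arrays lay below unexercised replicates 1, 2 and 4, and unexercised replicate 3 fell among them. The summed signal ran from 28146 to 56622 in unexercised and from 26564 to 39467 in exercised soleus, and no member was listed at 0. In cerivastatin soleus the list's median difference was 0.10 and in vehicle gastrocnemius -0.20. The share of tendon taken with each muscle is given by no label, and its part in the difference was not tested. Of 50 extracellular matrix genes 29 had a positive difference, with a median of 0.02, which was -0.01 with median centring, and without unexercised replicate 3 the count was 34 with a median of 0.17. The 2 of 50 that were lower at an unadjusted p under 0.05, where 1.13% of all genes were, were Chad and Comp, which are on both lists. Col1a1, the main chain of type I collagen, differed by 0.02 ± 0.29.

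Further lists differed in sign or size with unexercised replicate 3. Adipocyte markers had a median of 0.13 and, without that array, of 0.61, and Schwann cell and nerve markers of 0.11 and 0.64. For macrophage and myeloid markers the medians were -0.05 and 0.27, for endothelial markers 0.19 and 0.43, and for smooth muscle and pericyte markers 0.28 and 0.52. Each of these 5 lists was highest within the unexercised group on replicate 3, and highest within the exercised group on replicates 3 and 4. With and without that array, 13 of 15 endothelial and 12 of 13 smooth muscle and pericyte markers were positive. Their medians changed sign in 0 of 24 alternatives, and the adipocyte, Schwann cell and macrophage medians in 4, 3 and 5. Members of these lists too may move together from array to array. With the adipocyte and fast fibre list means of each array as covariates, an alternative added after seeing the data, the tendon and cartilage median was -0.40, G0s2 differed by -1.67 and Chad by -1.08. No covariate covered tendon, and the part of tissue composition in these differences was not tested. Fatty acid synthesis had 3 of 19 members positive and a median of -0.16, and 12 of 19 and 0.21 without that array. Sterol synthesis, the pathway that statins block, had 7 of 22 positive and a median of -0.23, and -0.07 without it. Complement and interferon genes had 5 of 24 positive with a median of -0.20, and 12 of 24 with -0.03.

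Other lists moved less. Angiogenesis and hypoxia genes had 12 of 19 positive with a median of 0.15, and 14 of 19 with 0.15 without unexercised replicate 3. In that list Apln, apelin, a peptide that acts on vessels, had signals of 277, 181, 368 and 426 in unexercised and 637, 606, 519 and 359 in exercised soleus, a difference of 0.77 ± 0.29, with exercised replicate 4 within the unexercised range. Cell cycle genes had 23 of 31 positive and a median of 0.22, with 3 higher at an unadjusted p under 0.05, where 1.37% of all genes were. Without unexercised replicate 3 there were 22 of 31 positive, a median of 0.29 and 1 higher at that threshold, where 2.39% of all genes were. In that list Kif23, a kinesin of cell division, had 111, 5.0, 61.7 and 8.7 against 95.6, 67.7, 113 and 71.4, a difference of 1.19 ± 0.52, and unexercised replicates 2 and 4 were the low arrays. Ribosomal protein genes had a median of 0.07, which was -0.01 with quantile normalization and 0.04 without unexercised replicate 3, and proteasome genes one of 0.09, which was 0.01 without that array. Myod1, a transcription factor of the muscle lineage, was the only one of 20 myogenic and denervation genes with an unadjusted p under 0.05, where 1.13% of all genes were lower and 1.37% higher, at 359, 1906, 501 and 484 against 157, 354, 358 and 277, a difference of -1.19 ± 0.52. Unexercised replicate 2 was by far the highest of the 8 arrays, and the lowest unexercised array lay just above the highest exercised one. That list had 15 of 20 positive with a median of 0.11, and 11 of 20 with 0.09 without unexercised replicate 3.

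Red cell genes were lower in exercised soleus in all 6 tested members, with a median of -0.18, without passing the test. The mean log2 signal of this erythroid list lay between 9.16 and 9.38 in unexercised and between 8.86 and 9.10 in exercised soleus, so the groups did not overlap, by a small margin. The summed signal of the list did overlap, at 13676 to 27653 in unexercised and 12411 to 18335 in exercised soleus. Slc25a37, a member that enters this mean, was named above under the condition that its groups do not overlap. Hbb, beta globin, had signals of 14536, 9796, 24096 and 12627 against 10907, 15322, 9360 and 10755, a difference of -0.34 ± 0.29, and its groups overlapped. Without unexercised replicate 3 the list's median was -0.28 with 1 of 6 positive.

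Among 29 genes of muscle atrophy and growth, 16 had a positive difference, with a median of 0.03, which was -0.01 with median centring and 0.09 without unexercised replicate 3. Foxo4, a forkhead factor of the family that drives muscle protein breakdown, had signals of 2777, 2570, 1375 and 2912 in unexercised and 1571, 1735, 1870 and 1292 in exercised soleus, a difference of -0.53 ± 0.23. Unexercised replicate 3 alone lay among the exercised arrays of Foxo4, and without it the difference was -0.77 ± 0.19. Odc1, which begins polyamine synthesis, had 4990, 4452, 3767 and 3784 against 8450, 10918, 3354 and 7904, a difference of 0.74 ± 0.48. Exercised replicates 1, 2 and 4 of Odc1 lay above all unexercised arrays and exercised replicate 3 below them. Among complement and interferon genes, Irf9, a subunit of the interferon-activated transcription factor, had 444, 394, 525 and 402 against 357, 237, 342 and 285. Its groups did not overlap, and its difference was -0.52 ± 0.20.

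The remaining lists had small medians, and most of them turned in sign with unexercised replicate 3 or with the scaling. Heat shock genes had 14 of 21 positive with a median of 0.07, and 6 of 21 with -0.07 without that array. Hspa1a, the inducible HSP70 chaperone, had signals of 8229, 4698, 3951 and 6595 against 7445, 9579, 7262 and 7429, a difference of 0.48 ± 0.29. The 4 exercised arrays of Hspa1a lay above unexercised replicates 2 to 4, and 3 of them below replicate 1. Regulators of mitochondrial biogenesis had 23 of 39 positive with 0.03, which was -0.01 with median centring, and 13 of 39 with -0.08 without unexercised replicate 3. For calcium handling and excitation-contraction it was 16 of 26 with 0.01, which was -0.03 with median centring and -0.01 with quantile normalization, and 6 of 26 with -0.09 without that array. Fast fibre genes had 12 of 21 positive with 0.01, which was -0.03 and -0.08 under those scalings, and 12 of 21 with 0.05 without that array.

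Clock genes had 6 of 16 positive with a median of -0.04, and 7 of 16 with -0.07 without unexercised replicate 3. The oxidative stress and metal response list had 11 of 23 positive with -0.02, and 11 of 23 with 0.00 without that array. In the unfolded protein and amino acid stress list 10 of 26 were positive with -0.09, and 15 of 26 with 0.05 without it. Lymphocyte markers had a median of 0.15, and 0.20 without it. The mast cell median was -0.17 and turned to 0.19 without it. For satellite cell and fibroblast markers the median was 0.05, -0.01 with quantile normalization, and 0.22 without that array. The 4 neutrophil markers had a median of 0.03, -0.03 without that array, and a sign opposite to the first in 12 of 24 alternatives.

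**Figure D5:**
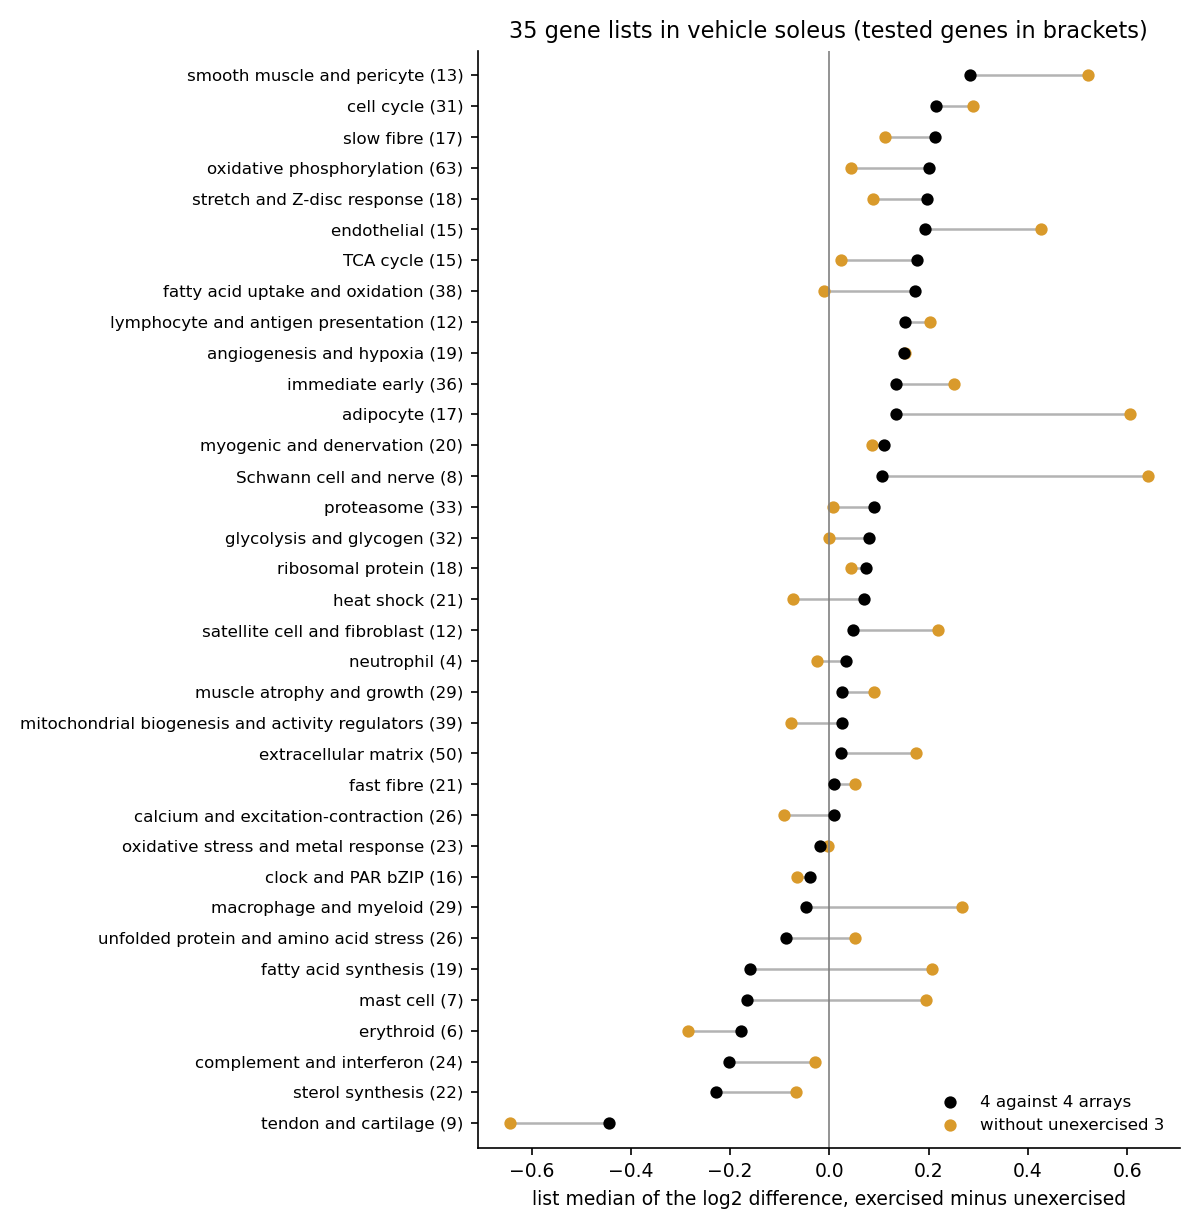
Median log2 difference, exercised minus unexercised (horizontal axis), of 35 gene lists (vertical axis, number of tested genes in brackets), from 4 against 4 arrays in black and without unexercised replicate 3 in orange. The tendon and cartilage list lies lowest at -0.44 and -0.64, and the adipocyte and the Schwann cell and nerve lists move most when that array is left out.

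How far unexercised replicate 3 departed was measured against the other 3 unexercised arrays, as a description with no test. It differed by more than 2 log2 units from their mean for 271 of 11684 genes (2.32%), 226 higher and 45 lower. For each of the other 7 arrays, set against the other 3 of its own group, the share was 0.608% to 1.19%. The 8 genes highest on it were Clec3b, Pllp, Mbp, Nnat, Arxes1, Scd, Apod and Adipoq, of which Adipoq and Scd belong to the adipocyte list, Mbp to the nerve list and Clec3b to the satellite cell and fibroblast list. Pllp, a myelin-associated protein, had signals of 16.5, 20.6, 1161 and 8.6 in unexercised and 82.4, 96.2, 200 and 368 in exercised soleus. Nnat, neuronatin, had 550, 742, 18452 and 534 against 957, 402, 8076 and 8818, again with exercised replicates 3 and 4 next in order. The gene lowest on it against its group was Slc30a2, a zinc transporter, with 255, 189, 19.5 and 274 in unexercised and 147 to 285 in exercised soleus. On the first principal component, which held 35.1% of the variance of the 8 arrays, unexercised replicate 3 stood at 79.4 and exercised replicates 3 and 4 at 36.9 and 34.6, while the other 5 lay between -49.5 and -2.2. The largest component thus separated arrays across both groups and not exercised from unexercised samples. The 3 arrays highest on it also had the lowest beta-actin 5' to 3' ratios, and the part of RNA quality in it was not tested.

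Whether exercise differed between drug states or muscles was tested directly. The exercise by cerivastatin interaction in soleus had 0 of 21729 probe sets past the adjusted threshold (0%, limma) and 705 (3.24%) at an unadjusted p under 0.05. In the exercise by muscle interaction of vehicle animals 0 passed (0%, limma) and 477 (2.2%) had an unadjusted p under 0.05. That fit treated soleus and gastrocnemius arrays as unpaired, since no label says which came from the same animal. Its spread came from all arrays of the series, cerivastatin gastrocnemius included. The standard deviation of the calcium and excitation-contraction list mean was 1.01 in exercised gastrocnemius on 1.0 mg/kg cerivastatin, against 0.16 on vehicle. For the slow fibre list these were 2.27 and 2.30. The part of the cerivastatin arrays in the interaction counts and intervals was not tested. With unexercised replicate 3 left out, both counts were again 0 (0%, limma), with 640 (2.95%) and 546 (2.51%) at an unadjusted p under 0.05. At the median gene the 95% interval of these differences of differences reached 0.75 and 0.85 to either side, so they were measured less closely than the exercise difference itself. The slow fibre list had a median difference of -2.26 in vehicle gastrocnemius and 0.21 in vehicle soleus, and its mean log2 signal ranged from 8.72 to 14.32 among the exercised gastrocnemius arrays alone. No slow fibre gene passed the interaction test.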

How the data were processed

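Soleus RNA was hybridised to single-channel Affymetrix arrays. MAS5, named in the submitters' processing notes with no version given in the sources used here, turned the probes into 1 linear intensity per probe set, and the authors deposited these intensities. The 2% trimmed means lay between 600.2 and 600.3 on all 8 arrays, and the authors' scaling was kept. MAS5 subtracts mismatch probes, which leaves weak signals noisy. Array data have no read depth, and the number of arrays limits the precision.

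Of 31099 probe sets, 57 controls were left out. An offset of 12.4, the 10th percentile, was added before log2, which shrinks weak differences. The dimmest 30% of probe sets by mean were dropped, and the other 21729 were tested with limma 3.58.1 (lmFit and eBayes with trend, R 4.3.3) on group means of the 15 soleus arrays; the gastrocnemius comparison used 30 arrays and the muscle interaction 45. P-values were adjusted by Benjamini-Hochberg at 0.05, and the script was tested on simulated data. Samples were grouped by title, and soleus titles without exercise were taken as unexercised. A gene was its brightest single-symbol probe set (11684 genes; symbols from the platform annotation). No array dates were used here.

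Named were up to 12 genes per direction past the threshold without overlap (none), and in their place those of smallest p that did not overlap and had an unadjusted p under 0.05 with and without unexercised replicate 3. Added were a panel of 47, up to 4 members of each of 35 lists, and the 8 genes highest and lowest on that array. Other genes named were chosen after their values were seen. The samples compared, lists and panel were chosen with earlier results of these data known. Alternatives covered offset, filter, scaling, prior, arrays fitted, probe sets per gene and left-out arrays.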

Additional observations from a re-analysis of the deposited data

Results flagged for a closer look

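In 12 of 206 groups of 4 arrays examined (5.83%), 1 array lay far from the other 3 of its group; chance alone gives about 1 in 20, so the number as a whole is close to that. All values are log2 signals, for a list its mean. Unexercised replicate 3 stood apart as high in the Schwann cell and nerve list, at 11.17 against 8.56 to 8.99 on the other 3, and in Insig1, a brake on sterol synthesis, at 10.76 against 9.56 to 9.73. The same array was low in the myogenic and denervation list, at 9.704, and in Tfam, the activator of mitochondrial DNA transcription, at 10.59 against 11.51 to 11.69.

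Unexercised replicate 2 was high in the glycolysis and glycogen list at 12.66 against 12.07 to 12.13, and it is also the unexercised array with the highest Myh4 signal. Unexercised replicate 1 was high in the oxidative stress and metal response list at 11.47 and low in Svip at 9.316. Unexercised replicate 4 was high in Ppargc1a at 10.24 against 9.30 to 9.40. Among the exercised arrays, replicate 3 was high in the myogenic and denervation list at 10.19, and replicate 2 was low in the fatty acid synthesis list at 8.762 against 9.50 to 9.64. Exercised replicate 4 was low in Ten1 at 8.916, still above all unexercised arrays, and in Rab26 at 4.079, where the signal is below the offset.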

How the results depend on the processing

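No probe set passed the adjusted threshold for exercise in vehicle soleus under any of 23 alternatives, among them leaving out each array, other offsets, filters and scalings, array weights and fits on 8 or 45 arrays. The smallest adjusted p over them ranged from 0.0719, with a prior variance that ignores signal level, to 1.00, and the number at an unadjusted p under 0.05 from 347 with a filter at the median to 1253 with adipocyte and fast fibre list means as covariates, an alternative added after seeing the data. The exercise by muscle interaction gave 0 to 1 when single arrays were left out: without exercised replicate 1, 1 probe set with no symbol passed (log2 difference of differences -3.33 ± 0.57, adjusted p 0.0215, limma). Replicate numbers showed no clear pairing of the samples: the deviations of same-numbered arrays correlated at 0.21, -0.01, 0.34 and -0.16, and 2 of 8 arrays correlated best with their own number. With so few arrays per group these correlations cannot decide whether same-numbered arrays were processed together, and no label says so. With the replicate number as a block the count was 0 (585 at an unadjusted p under 0.05). Scaling moved the slow fibre median from 0.21 to 0.18 with median centring and to 0.06 with quantile normalization, and the tendon and cartilage median stayed between -0.73 and -0.28 over its 24 alternatives. The 271 genes on which unexercised replicate 3 departed were 239 and 261 under those 2 scalings.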
